A study of Mus musculus with 34 samples.

Results

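The CXC chemokines and neutrophil chemokine receptors were followed in mouse blood as 7 genes: the ligands Cxcl2, Cxcl3, Cxcl10 and Cxcl16 and the receptors Cxcr1, Cxcr2 and Cxcr4. They were chosen by name, with earlier results of these data known. They were matched by symbol and found as 7 of the 54532 gene IDs counted. Poly-A-selected RNA was sequenced from 7 mice given ALY688+LPS, 4 given LPS, 10 given ALY688 and 9 given PBS. ALY688 is, by the title of the series, a receptor agonist for the study of adiponectin action, LPS (lipopolysaccharide) is a Gram-negative bacterial cell wall component sensed through TLR4, and PBS is buffered saline. Every mouse was wild type and every sample was labelled blood, while the series text speaks of plasma for the experiment without LPS and of whole blood for the LPS model. The sources used here do not state strain, sex, age, doses or sampling times. Mice with and without LPS may come from separate experiments, so LPS and experiment cannot be told apart in a comparison across LPS. Not analysed here were PBS mouse 10 and the LPS mice numbered 3, 4 and 5.

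CXC chemokines are small secreted proteins that guide leukocytes along gradients through G-protein-coupled receptors. CXCL2 and CXCL3 are ligands of CXCR2, which drives neutrophils out of the bone marrow and towards sites of infection, and CXCR1 is its close relative. CXCL12 acting on CXCR4 holds neutrophils and other leukocytes in the marrow, CXCL10 attracts CXCR3-bearing T and NK cells, and CXCL16 is a membrane-bound or shed ligand of CXCR6.

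Promoter windows are printed for Cxcl2 and Cxcl3, neighbours on chromosome 5 that behaved differently here, and for Cxcl10. Each is the 250 bases before the RefSeq start on GRCm38.p6, 5' to 3' on the gene's strand. Capitals mark matches to GGGNNNNNCC (a loose NF-kB pattern) on either strand, to TATAAA, and to GAAANNGAAA (an interferon-response core).
Cxcl2 (chr5:90903649-90903898, + strand): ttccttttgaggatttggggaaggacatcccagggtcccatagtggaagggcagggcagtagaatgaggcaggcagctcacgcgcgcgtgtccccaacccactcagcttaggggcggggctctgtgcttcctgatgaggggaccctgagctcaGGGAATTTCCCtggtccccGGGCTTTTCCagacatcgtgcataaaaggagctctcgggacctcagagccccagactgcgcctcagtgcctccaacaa
Cxcl3 (chr5:90785851-90786100, + strand): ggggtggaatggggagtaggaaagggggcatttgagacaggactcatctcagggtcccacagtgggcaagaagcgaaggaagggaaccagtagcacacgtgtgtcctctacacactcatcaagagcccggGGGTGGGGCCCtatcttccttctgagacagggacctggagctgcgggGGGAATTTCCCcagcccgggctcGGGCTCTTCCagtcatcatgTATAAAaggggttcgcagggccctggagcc
Cxcl10 (chr5:92348890-92349139, - strand): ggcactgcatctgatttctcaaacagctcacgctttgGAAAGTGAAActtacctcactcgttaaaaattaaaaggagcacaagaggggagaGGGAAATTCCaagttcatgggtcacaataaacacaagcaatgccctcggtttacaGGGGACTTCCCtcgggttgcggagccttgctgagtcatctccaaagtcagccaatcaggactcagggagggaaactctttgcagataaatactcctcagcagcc
The windows of Cxcl2 and Cxcl3 both hold the 10-letter instance GGGAATTTCC, which starts 97 bases before the start of Cxcl2 and 73 bases before that of Cxcl3. That instance occurs in 28 of 32851 mouse promoter windows of the same length (0.0852%), whereas the looser GGGNNNNNCC, of which it is one case, occurs in 45.8%. Cxcl10 holds 4 overlapping or separate loose matches and a GAAANNGAAA match, a pattern found in 2.98% of windows. TATAAA, present in 12.4% of windows, lies 30 bases before the start of Cxcl3 and is spelled on both strands in that of Cxcr4. Cxcr1 and Cxcr2 hold 1 loose match each. The 10 letters held by both Cxcl2 and Cxcl3 were picked as a loose match that these windows share, so their presence in both was fixed by that choice. A letter match is a description and does not show binding, and a window without a match says only that these letters are not in it. No window for Cxcl16 was used.

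Libraries held 9554964 to 17338214 counts. CPM expresses a gene's counts relative to the total of its library, and 3 counts, taken as the floor of detection, equalled 0.173 to 0.314 CPM by library totals. On the TMM scale of the levels below, 3 counts equalled from 0.0692 CPM in LPS mouse 6 to 0.896 CPM in PBS mouse 5. Of the 30, 6 libraries had counts for fewer than 16000 genes (PBS mice 5, 6 and 9, ALY688 mouse 7, and ALY688+LPS mice 6 and 8). Globin genes held 18.5% to 43.7% of counts in LPS mice and 45.2% to 64.4% in PBS mice, without overlap. Their share was 26.3% to 54.3% in ALY688+LPS mice and 42.2% to 60.8% in ALY688 mice. In LPS against PBS, this globin share as a covariate can hardly be told apart from LPS. Levels below are CPM with TMM scaling across the 30 libraries, given with the SD between mice. Differences between groups are given as log2 fold changes, with a standard error (SE), from edgeR's quasi-likelihood test. The threshold was an adjusted p (Benjamini-Hochberg, all genes tested) below 0.05. In bulk blood, fewer cells of a type and less RNA per cell cannot be told apart.

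Under LPS, Cxcl2, Cxcl10, Cxcl16 and both neutrophil receptors were more abundant and Cxcr4 was less abundant, with or without ALY688. For ALY688 itself, none of the 7 passed, beside 0% of all genes tested. In ALY688+LPS against ALY688, 5 of the 7 genes entered the test; 4 rose and 1 fell, beside 53.0% of 12266 genes that passed in either direction (26.4% rose and 26.6% fell). In LPS against PBS, 6 entered; 5 rose and 1 fell, beside 38.7% of 12353 genes (20.9% rose and 17.9% fell). The low-count filter favours genes that are high in 1 group: Cxcl2 and Cxcr1 entered the first comparison only through the ALY688+LPS libraries, and Cxcl2, Cxcl10 and Cxcl16 the second only through the LPS libraries. With no filter, all 7 were tested, and 5 rose and 1 fell in both comparisons, beside 28.2% of 26025 genes and 19.0% of 25016 genes that passed. Scaled by library totals in place of TMM, 4 rose and 0 fell in ALY688+LPS against ALY688, where 1846 of 12266 genes rose and 1204 fell. By library totals, 5 rose and 0 fell in LPS against PBS. That scaling moved the median log2 fold change of all genes to 1.04 in LPS against PBS, where 5597 genes then rose and 298 fell. Because the 7 genes and the gene lists below were chosen with earlier results of these data known, such counts are descriptions and no test of a set. Where groups are said below not to overlap, the share of all genes that separate in the same way was not determined.

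**Figure D1:**
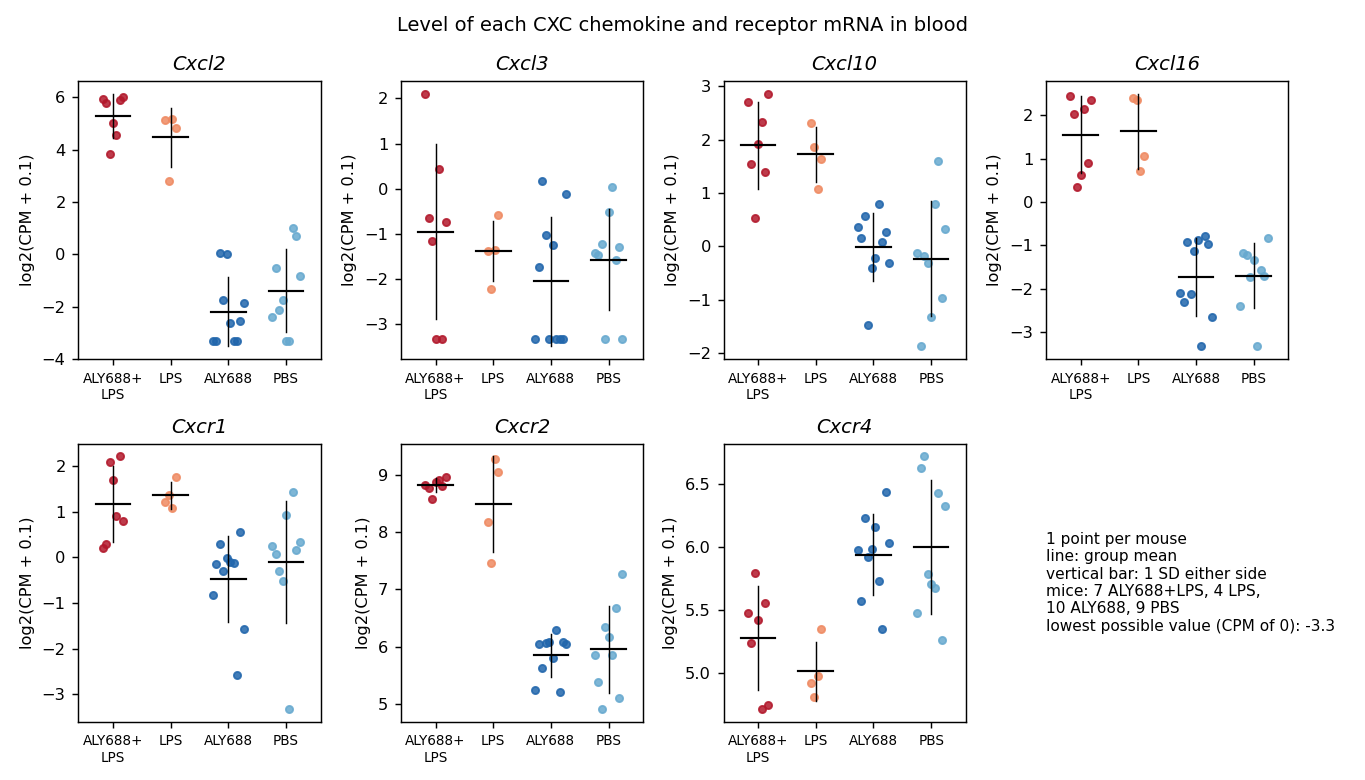
Level of each gene in every mouse, as log2(CPM + 0.1), by group; points are mice, horizontal lines group means and vertical bars 1 SD either side. Cxcl2, Cxcl16 and Cxcr2 lie higher in every mouse given LPS than in any mouse without it, Cxcl3 overlaps in all 4 groups, and Cxcr4 averages lower in both LPS-treated groups. How common such separation is among all genes was not determined.

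Cxcl2 (ENSMUSG00000058427, chr5:90903871-90905938, + strand, GRCm38) was the ligand with the largest fold change. Its lowest, median and highest levels in ALY688+LPS mice were 14.2, 54.8 and 65.1 CPM, and in ALY688 mice 0, 0.0664 and 0.948 CPM. The 4 LPS mice had 34.6, 6.78, 35.7 and 27.9 CPM in mice 2, 6, 7 and 8, against a lowest, median and highest level of 0, 0.201 and 1.89 CPM in PBS mice. Every mouse given LPS was above every mouse without it, and the lowest of them was LPS mouse 6. The gene had no counts in 4 of 10 ALY688 mice and 2 of 9 PBS mice. Cxcl2 rose by 7.41 ± 0.54 (SE) on the log2 scale in ALY688+LPS against ALY688 (95% interval 6.27 to 8.54, edgeR adjusted p = 3.16e-09), and by 5.46 ± 0.60 in LPS against PBS (4.18 to 6.73, adjusted p = 6.32e-06). The mice without LPS held 34 counts of Cxcl2 in all with ALY688 and 45 with PBS.

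ALY688+LPS mice averaged 44.3 ± 20.7 CPM of Cxcl2 and LPS mice 26.3 ± 13.4 CPM (SD, n = 7 and 4). The ranges overlapped, and the log2 difference of 0.75 ± 0.49 did not pass (95% interval -0.32 to 1.83, edgeR adjusted p = 0.913). ALY688 mice averaged 0.235 ± 0.370 CPM and PBS mice 0.547 ± 0.698 CPM. The gene was too low for the filtered test there, and without the filter the log2 difference was -1.17 ± 0.78 (interval -2.78 to 0.44, adjusted p = 0.516). The interaction, which is the ALY688 difference under LPS minus that without LPS, was 1.95 ± 0.95 with an unadjusted p of 0.0488 and an edgeR adjusted p of 0.507.

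Cxcl3 (ENSMUSG00000029379, chr5:90786103-90789600, + strand) encodes the other CXCR2 ligand of the set and stayed near the floor of detection. Its ALY688+LPS levels were 4.20 CPM in mouse 1, 0.535 in mouse 3, 0.351 in mouse 4, 0 in mouse 6, 1.26 in mouse 7, 0 in mouse 8 and 0.498 in mouse 10. The LPS mice had 0.284, 0.115, 0.288 and 0.567 CPM in mice 2, 6, 7 and 8. The highest level was 1.03 CPM with ALY688 and 0.931 CPM with PBS, so 1 mouse, with 104 of the 163 Cxcl3 counts of its group, stood above the rest. All pairs of groups overlapped.

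Cxcl3 did not enter the filtered test across LPS. Without the filter its log2 difference was 1.91 ± 0.88 in ALY688+LPS against ALY688 (edgeR adjusted p = 0.123) and 0.15 ± 0.72 in LPS against PBS (adjusted p = 0.909). A fit to all 4 groups called the first of these at an adjusted p of 0.0286 (log2 1.88), and without ALY688+LPS mouse 1 it gave 0.84 (adjusted p = 0.348). Leaving out that mouse was chosen after the values had been seen. In ALY688+LPS against LPS the difference was 1.86 ± 0.96 (adjusted p = 0.913), and 0.74 ± 0.72 without mouse 1 and without the filter. Cxcl2 and Cxcl3 are close paralogs, and the sources used here do not state how reads shared by such genes were counted.

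Cxcl10 (ENSMUSG00000034855, chr5:92346638-92348889, - strand), the interferon-inducible CXCR3 ligand, rose less than Cxcl2. The lowest, median and highest levels were 1.35, 3.66 and 7.18 CPM in ALY688+LPS mice and 0.260, 0.985 and 1.64 CPM in ALY688 mice. LPS mice had 4.90, 3.53, 2.02 and 3.02 CPM in mice 2, 6, 7 and 8, against 0.173, 0.783 and 2.95 CPM as the lowest, median and highest in PBS mice. The ranges overlapped in both comparisons, through ALY688+LPS mouse 4 in the first and PBS mouse 7 in the second. The log2 rise was 2.18 ± 0.33 in ALY688+LPS against ALY688 (95% interval 1.5 to 2.86, edgeR adjusted p = 1.35e-05) and 1.78 ± 0.48 in LPS against PBS (0.76 to 2.80, adjusted p = 0.00842). Against LPS, ALY688+LPS gave 0.30 ± 0.39 (-0.55 to 1.15, adjusted p = 0.929). The rise in LPS against PBS did not pass with the globin share as a covariate (1.59, edgeR adjusted p = 0.273), among alternatives whose adjusted p ran from 0.000456 to 0.273. With that covariate the SE was 1.05, beside 0.48 without it, and the globin shares of LPS and PBS mice did not overlap. Cxcl10 overlaps the antisense gene Art3, and with no strand setting stated their reads cannot be told apart; Art3 itself had at most 7 counts in any library.

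Cxcl16 (ENSMUSG00000018920, chr11:70453983-70459984, - strand), the ligand of CXCR6 on T cells and NKT cells, was almost undetected without LPS. ALY688+LPS mice had 1.17, 3.96 and 5.30 CPM as the lowest, median and highest, and ALY688 mice 0, 0.246 and 0.478 CPM. LPS mice had 5.14, 4.96, 1.54 and 1.98 CPM in mice 2, 6, 7 and 8, against 0, 0.236 and 0.464 CPM as the lowest, median and highest in PBS mice. No mouse without LPS reached the level of any mouse with it. Cxcl16 rose by 3.78 ± 0.43 on the log2 scale in LPS against PBS (95% interval 2.86 to 4.69, edgeR adjusted p = 6.89e-06). In ALY688+LPS against ALY688 it fell just short of the filter, since 6 of the 7 mice needed reached its minimum, and without the filter it rose by 3.60 ± 0.38 (2.83 to 4.38, adjusted p = 2.40e-09). The difference of ALY688+LPS against LPS was -0.04 ± 0.46 (-1.03 to 0.95, adjusted p = 0.998), and it was above 0 without LPS mouse 2 (0.20), LPS mouse 6 (0.19), or ALY688+LPS mouse 4 (0.11), 6 (0.07) or 8 (0.03). Cxcl16 overlaps the antisense gene Zmynd15, which had up to 38 counts in LPS mice and 17 in ALY688+LPS mice and cannot be told apart from it without a stated strand.

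Cxcr2 (ENSMUSG00000026180, chr1:74153989-74161246, + strand), the main neutrophil receptor for Cxcl2 and Cxcl3, was the most abundant transcript of the set per length under LPS. ALY688+LPS mice had 385, 451 and 502 CPM as the lowest, median and highest, and ALY688 mice 36.8, 65.8 and 78.3 CPM. LPS mice had 288, 175, 620 and 530 CPM in mice 2, 6, 7 and 8, against 29.9, 58.0 and 155 CPM as the lowest, median and highest in PBS mice. The groups with and without LPS did not overlap, and LPS mice 6 and 2 were the lowest of those given LPS. The spread between mice was small with both agents (455 ± 37.7 CPM, SD, n = 7) and wide with LPS alone (403 ± 207 CPM, n = 4). Set against the neutrophil markers described below, the order was reversed, with a log2 SD of 0.33 with both agents and 0.13 with LPS alone. Cxcr2 rose by 2.94 ± 0.16 on the log2 scale in ALY688+LPS against ALY688 (95% interval 2.60 to 3.29, edgeR adjusted p = 2.95e-11) and by 2.52 ± 0.41 in LPS against PBS (1.66 to 3.38, adjusted p = 0.000156). Between ALY688+LPS and LPS it differed by 0.17 ± 0.30 (-0.48 to 0.83, adjusted p = 0.940), and by -0.08 without LPS mouse 6.

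Cxcr1 (ENSMUSG00000048480, chr1:74191785-74194631, - strand), its neighbour and close relative, was scarce. ALY688+LPS mice had 1.05, 1.79 and 4.54 CPM as the lowest, median and highest, and ALY688 mice 0.0683, 0.816 and 1.38 CPM. LPS mice had 2.23, 2.49, 2.02 and 3.31 CPM in mice 2, 6, 7 and 8, against 0, 1.03 and 2.60 CPM as the lowest, median and highest in PBS mice. The ranges overlapped in both comparisons. Cxcr1 rose by 1.70 ± 0.41 in ALY688+LPS against ALY688 (95% interval 0.84 to 2.57, edgeR adjusted p = 0.00180). In LPS against PBS it rose by 1.18 ± 0.44 (0.25 to 2.11, adjusted p = 0.0430), close to the threshold. That call was lost without any 1 of PBS mice 1, 2, 3, 4 or 8 (log2 1.18, 1.15, 1.10, 1.09 and 1.17; adjusted p 0.0627 to 0.0675) and without LPS mouse 2, 6 or 8 (1.24, 1.22 and 1.04; adjusted p 0.0726 to 0.132). Over all alternatives the adjusted p ran from 0.00297 to 0.380. Per kilobase of exon, Cxcr2 exceeded Cxcr1 in every library with Cxcr1 reads, by a median of 132-fold in ALY688+LPS, 70.8-fold in LPS, 39.6-fold in ALY688 and 20.9-fold in PBS mice. The 2 genes are paralogs, and how reads they share were counted is likewise not stated.

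Cxcr4 (ENSMUSG00000045382, chr1:128588199-128592293, - strand), the CXCL12 receptor, moved the other way. ALY688+LPS mice had 26.1, 42.8 and 55.5 CPM as the lowest, median and highest, and ALY688 mice 40.6, 63.1 and 86.4 CPM. LPS mice had 30.1, 28.0, 31.4 and 40.7 CPM in mice 2, 6, 7 and 8, against 38.2, 55.1 and 105 CPM as the lowest, median and highest in PBS mice. Both pairs overlapped, the LPS and PBS mice through mouse 8 of each, and ALY688+LPS mouse 4 was the highest of the mice given LPS. Cxcr4 fell by 0.65 ± 0.17 on the log2 scale in ALY688+LPS against ALY688 (95% interval -1.0 to -0.30, edgeR adjusted p = 0.00296) and by 1.07 ± 0.28 in LPS against PBS (-1.66 to -0.48, adjusted p = 0.00660). Scaled by library totals, these were -0.63 (adjusted p = 0.192) and -0.10 (adjusted p = 0.872), the second beside a median of 1.04 over all genes. The adjusted p over the alternatives ran from 0.000399 to 0.192 in the first comparison and from 0.000418 to 0.872 in the second. The difference of ALY688+LPS against LPS was 0.30 ± 0.21 (-0.15 to 0.75, adjusted p = 0.913).

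**Figure D2:**
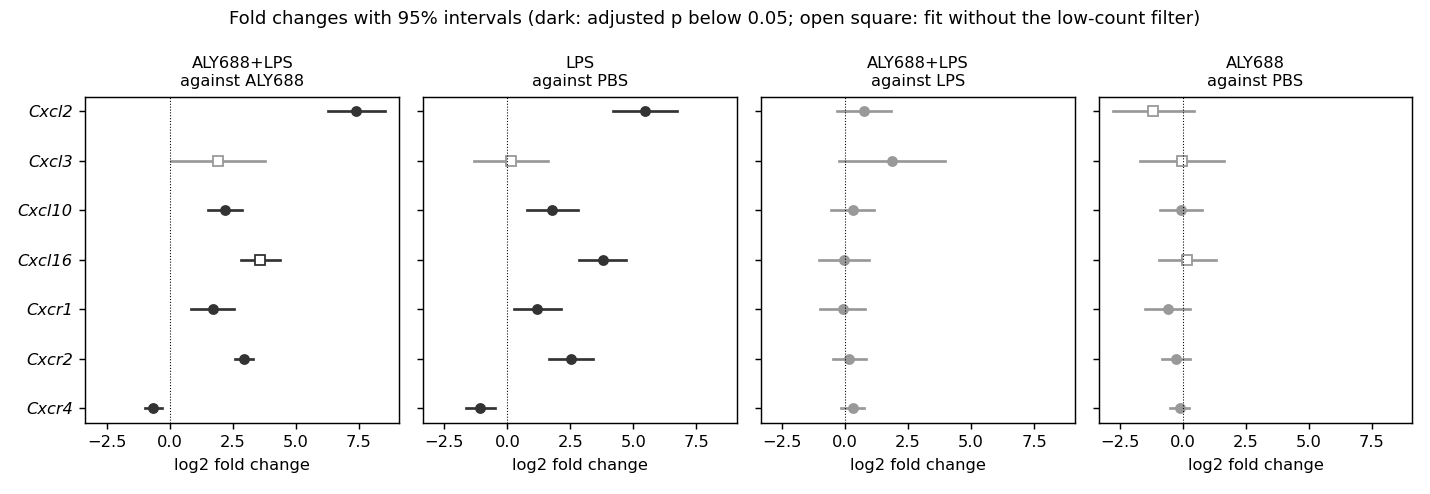
Log2 fold change of each gene with its 95% interval in 4 comparisons; dark symbols passed at an adjusted p below 0.05, and open squares come from the fit without the low-count filter, used where the filtered test left the gene out. Across LPS the intervals of Cxcl2, Cxcl10, Cxcl16, Cxcr1 and Cxcr2 lie above 0 and that of Cxcr4 below 0, while the intervals of all 7 genes include 0 in ALY688+LPS against LPS and in ALY688 against PBS.

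The ratio of Cxcr2 to Cxcr4 needs no scaling between libraries, since both counts come from the same one. Per kilobase of exon it was 4.11, 6.54 and 11.1 as the lowest, median and highest in ALY688+LPS mice and 0.353, 0.567 and 0.874 in ALY688 mice. It was 5.68, 3.71, 11.7 and 7.72 in LPS mice 2, 6, 7 and 8, against 0.168, 0.707 and 1.15 as the lowest, median and highest in PBS mice. Cxcr2 exceeded Cxcr4 in all 11 mice given LPS and in 1 of 19 without it, PBS mouse 9. The highest ratio without LPS was below the lowest with it. This pair sets a gene that rose over the 1 that fell, so its separation follows from those changes. Cxcl2 to Cxcl10 ran from 2.09 to 19.2 in LPS mice and 0 to 4.08 in PBS mice. Cxcl2 to Cxcl16 ran from 2.00 to 33.9 and 0 to 11.7. Both pairs thus overlapped there, though neither did between ALY688+LPS mice (lowest 5.11 and 7.85) and ALY688 mice (highest 1.48 and 4.38).

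**Figure D3:**
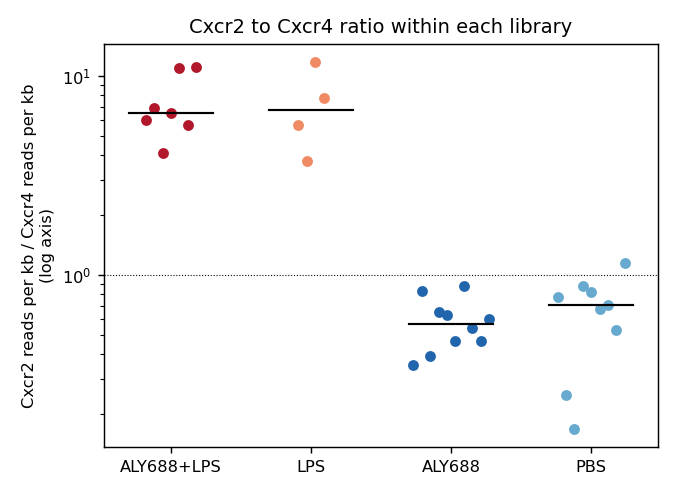
Ratio of Cxcr2 to Cxcr4 reads per kilobase of exon within each library, on a log axis, by group; points are mice, lines medians, and the dotted line marks equal levels. All 11 mice given LPS lie between 3.71 and 11.7, and the 19 without it between 0.168 and 1.15.

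Of 13 other CXC and related chemokines measured, 5 were tested in each comparison across LPS, and of those 5, 0 rose and 1 fell in each. Of all genes tested, 26.6% fell in ALY688+LPS against ALY688 and 17.9% in LPS against PBS. Cxcl12, the CXCR4 ligand, fell in ALY688+LPS against ALY688 (0.258 ± 0.154 against 2.71 ± 3.69 CPM, SD; log2 -3.38 ± 0.97, edgeR adjusted p = 0.00673), and Ppbp, a platelet-derived CXCR2 ligand, fell in LPS against PBS (574 ± 269 against 3324 ± 3133 CPM; -2.54 ± 0.78, adjusted p = 0.0175). These counts moved with the settings. Without the filter on low counts, 11 were tested and 3 rose and 1 fell in each comparison, where 28.2% and 19.0% of all genes passed in either direction, and with all 4 groups in 1 fit, 7 were tested and 2 rose and 1 fell in each. In LPS against PBS, 2 of 5 rose with library totals in place of TMM, where 5597 of 12353 genes rose. With the globin share as covariate 1 of 5 rose and 0 fell, beside 1623 of 12353 genes that rose, so that the fall of Ppbp was no longer called. Cxcl12 stood at 2.06 ± 1.23 in LPS against PBS, where its LPS range of 0 to 16.7 CPM covered that of PBS mice and it did not pass (adjusted p = 0.198). Cxcl1, another CXCR2 ligand, did not pass the filter on low counts: it had 147 counts over 5 of 7 ALY688+LPS mice and 16 counts over the 4 LPS mice, and no count in any of the 19 libraries without LPS. Of 9 other CXC and related receptors, 6 were tested. In ALY688+LPS against ALY688, 0 rose and 3 fell, beside 26.6% of all genes that fell. In LPS against PBS, 0 rose and 2 fell, beside 17.9% of all genes that fell. Cxcr5, which guides B cells to follicles, fell in both (log2 -2.05 ± 0.27, adjusted p = 3.89e-06, and -2.18 ± 0.29, adjusted p = 2.78e-05). Cxcr6, the CXCL16 receptor, and Cx3cr1, the fractalkine receptor, fell in ALY688+LPS against ALY688 (-1.84 ± 0.53 and -0.51 ± 0.18), and Xcr1, a dendritic cell receptor, fell in LPS against PBS (-2.21 ± 0.75, adjusted p = 0.0299). With library totals in place of TMM, 2 of the 6 fell in ALY688+LPS against ALY688 and 0 of the 6 in LPS against PBS. Over the settings tried, 2 or 3 fell in the first and 0 to 3 in the second, and 0 or 1 rose.

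Of 30 tested genes that carry signals from these receptors, 21 rose and 1 fell in ALY688+LPS against ALY688, where 26.4% of all genes tested rose, with a median log2 fold change of 0.72 against -0.05 over all genes, and 15 rose and 1 fell in LPS against PBS, where 20.9% of all genes rose (median 0.60 against -0.04). The Src-family kinase gene Fgr had the largest rise in both comparisons, by 2.61 ± 0.14 and 2.38 ± 0.25. Gngt2, a G-protein gamma subunit, rose by 1.80 ± 0.12 and 1.99 ± 0.18, and Gnb2, a beta subunit, by 1.23 ± 0.11 and 1.19 ± 0.19. Gnai3, an inhibitory alpha subunit, rose by 1.21 in the first comparison. The exception was Adcy7, an adenylyl cyclase, which fell by 0.39 in ALY688+LPS against ALY688, while Rgs18, a regulator of G-protein signalling abundant in platelets, fell by 2.05 in LPS against PBS. Without the 6 libraries of few detected genes, 21 rose and 1 fell in the first comparison and 19 rose and 0 fell in the second. Then 3846 of 12735 and 2735 of 12303 genes rose. With library totals, the counts were 16 rose and 0 fell in ALY688+LPS against ALY688 and 24 rose and 1 fell in LPS against PBS. There 1846 of 12266 and 5597 of 12353 genes rose. In LPS against PBS, 13 rose and 1 fell with the mouse number as block, and 11 rose and 0 fell with the globin share as covariate. Of all genes, 1950 of 11881 and 1623 of 12353 rose under these settings.

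**Figure D4:**
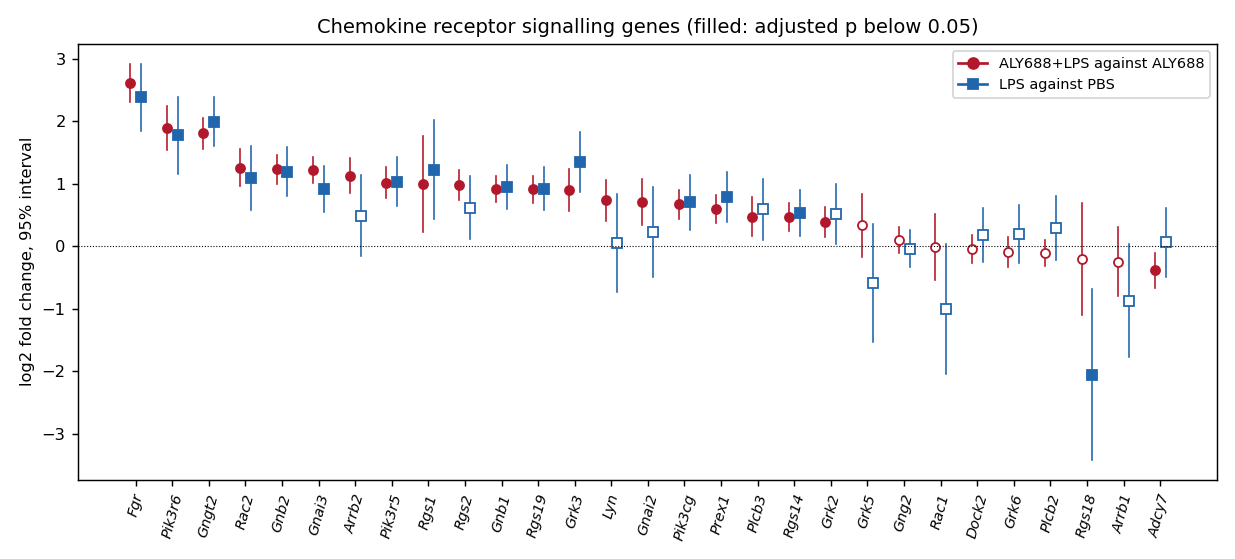
Log2 fold change with 95% interval of 29 chemokine receptor signalling genes in ALY688+LPS against ALY688 (circles) and LPS against PBS (squares), ordered by the first; filled symbols passed at an adjusted p below 0.05. Fgr has the largest rise in both comparisons, and Adcy7 and Rgs18 are the filled symbols below 0.

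Of 13 measured genes for chemokine cleavage and receptor trafficking, 9 rose and 1 fell in ALY688+LPS against ALY688 and 5 rose and 1 fell in LPS against PBS, beside 26.4% and 20.9% of all genes that rose. With library totals in place of TMM, 4 rose and 1 fell in the first comparison and 10 rose and 0 fell in the second. There 1846 of 12266 and 5597 of 12353 genes rose. The collagenase and gelatinase genes Mmp8 and Mmp9 had the largest rises (log2 4.04 and 2.59 in the first comparison, 3.76 and 2.66 in the second), and both also belong to the neutrophil markers below. Adam17, a sheddase, and Rhbdf2, which controls its trafficking, rose by 0.78 and 0.86 in the first comparison and by 0.74 and 1.05 in the second. Dpp4, the peptidase that trims CXCL10 and CXCL12, fell by 1.32 and 1.54.

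Markers of blood cell types moved across LPS as well. Of all genes tested, 26.4% rose and 26.6% fell in ALY688+LPS against ALY688, and 20.9% rose and 17.9% fell in LPS against PBS. All 15 neutrophil markers rose in ALY688+LPS against ALY688 and 14 of 15 in LPS against PBS, with median log2 fold changes of 3.56 and 2.73, and none was at 0 in all libraries. Their summed level was 5748 to 13883 CPM in ALY688+LPS, 4385 to 14931 in LPS, 564 to 1542 in ALY688 and 639 to 2362 in PBS mice. Of 13 monocyte markers, 9 rose and 1 fell in both comparisons; with the globin share as covariate, 4 rose and 0 fell in LPS against PBS. T cell markers fell in 12 of 12 and 11 of 12 cases, and B cell markers in 10 of 10 in both; with library totals in place of TMM, 2 T cell and 6 B cell markers fell in LPS against PBS. By library totals, 298 of 12353 genes fell there. T cell markers summed to 121 to 199 CPM in ALY688+LPS, 114 to 143 in LPS, 315 to 727 in ALY688 and 258 to 605 in PBS mice. LPS mouse 6 had the lowest mean neutrophil marker level of the mice given LPS (6.74 log2 CPM) and the lowest Cxcl2 and Cxcr2, and ALY688+LPS mouse 4 the lowest of its group (7.02). The part of these markers in the levels of the 7 genes was not tested beyond the ratios that follow.

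Each gene was therefore also set against the mean log2 CPM of the 15 neutrophil markers in the same library, and groups were compared with exact two-sided permutation tests, 28 in all, with Benjamini-Hochberg adjustment over those tests. Of the 28, 11 passed, all of them across LPS. The markers rose there by a median log2 of 3.56 in ALY688+LPS against ALY688 and 2.73 in LPS against PBS. The marker mean of every mouse given LPS was above that of every mouse without it. A gene that did not change is therefore lower against the markers, without overlap across LPS. Such a gene gives the smallest p its test allows. The share of all genes whose ratio would pass was not determined. Cxcl2 rose beyond the mean of the markers: its log2 ratio was -2.62 ± 0.71 in ALY688+LPS mice and -6.14 ± 1.17 in ALY688 mice (SD, difference 3.52, exact permutation p = 5.14e-05, adjusted p = 0.000720). The ratio was -3.15 ± 0.71 in LPS mice and -5.59 ± 1.51 in PBS mice (difference 2.43, exact permutation p = 0.0112, adjusted p = 0.0313). The second call was lost without LPS mouse 2 (2.12), 7 (2.46) or 8 (2.46), with adjusted p of 0.0636 to 0.0764, without the 6 libraries of few detected genes (1.72, adjusted p = 0.0970), and with a prior count of 0.5 in place of 2 (3.15, adjusted p = 0.0538).

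Cxcr2 rose by less than the mean of the markers. Its log2 ratio was 0.91 ± 0.33 in ALY688+LPS mice and 1.60 ± 0.23 in ALY688 mice (difference -0.69, exact permutation p = 0.000514, adjusted p = 0.00317), and 0.86 ± 0.13 in LPS mice and 1.54 ± 0.33 in PBS mice (difference -0.68, exact permutation p = 0.00420, adjusted p = 0.0131). The LPS and PBS ranges did not overlap, while the ALY688+LPS and ALY688 ranges did. Single markers spread around their mean, and Cxcr2 rose by more than some, such as Csf3r (log2 2.02 in ALY688+LPS against ALY688 and 1.80 in LPS against PBS). Others rose further, such as Fpr1 (5.78 and 5.39). Whether the markers themselves changed per cell was not tested. Cxcr4 had the largest shift, from its own fall and the rise of the markers together: -2.63 ± 0.80 in ALY688+LPS mice and 1.70 ± 0.44 in ALY688 mice (difference -4.33, exact permutation p = 5.14e-05, adjusted p = 0.000720). It was -2.61 ± 0.62 in LPS mice and 1.59 ± 0.80 in PBS mice (difference -4.20, exact permutation p = 0.00140, the smallest this design allows, adjusted p = 0.00559). Neither range overlapped.

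Among the scarcer genes, ratios to the markers were lower under LPS for Cxcl3, Cxcl10 and Cxcr1 in at least ALY688+LPS against ALY688, and no difference passed for Cxcl16. A lower ratio does not tell a fall of the gene from the rise of the markers. The Cxcl10 ratio was lower in ALY688+LPS mice by 1.80 than in ALY688 mice (exact permutation p = 0.000309, adjusted p = 0.00288), and its difference of -1.32 in LPS against PBS did not pass (exact permutation p = 0.0322, adjusted p = 0.0751); the second passed without PBS mouse 2 (-1.44), PBS mouse 5 (-1.49) or LPS mouse 6 (-1.66). The Cxcl16 ratio differed by -0.59 and -0.07 and passed in neither comparison. The Cxcr1 ratio was lower by 2.08 in ALY688+LPS mice (exact permutation p = 0.000566, adjusted p = 0.00317) and by 1.82 in LPS mice (exact permutation p = 0.0196, adjusted p = 0.0498). The second Cxcr1 call was lost in 12 of 13 leave-outs, all but PBS mouse 6 (differences from -2.12 to -1.48, adjusted p 0.0617 to 0.116), and with a prior count of 0.5 in place of 2 (-1.57, adjusted p = 0.297). Cxcl3, near the floor, had a ratio lower by 2.67 in ALY688+LPS mice and by 3.08 in LPS mice (exact permutation tests, adjusted p = 0.00666 and 0.00559), and with a prior count of 0.5 neither passed (-2.26 and -2.85, adjusted p = 0.183 and 0.0914). With that prior count, 7 of the 28 passed, and the 4 lost were these 2 and those of Cxcl2 and Cxcr1 in LPS against PBS.

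**Figure D5:**
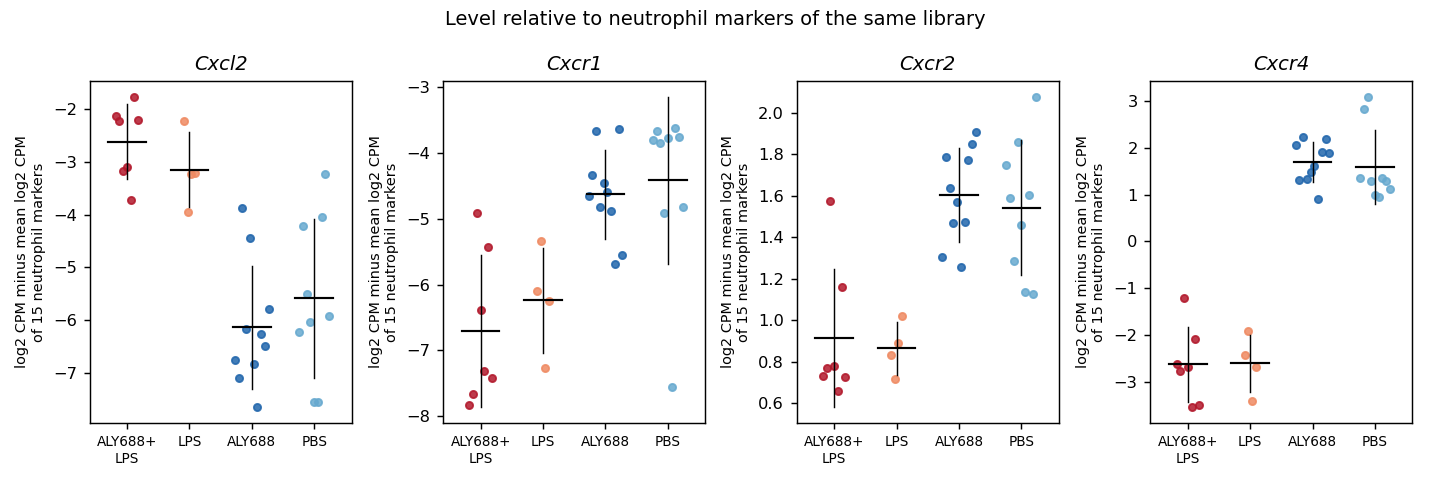
Log2 CPM of Cxcl2, Cxcr1, Cxcr2 and Cxcr4 minus the mean log2 CPM of 15 neutrophil markers in the same library (prior count 2); points are mice, horizontal lines group means and vertical bars 1 SD either side. Both LPS-treated groups lie higher for Cxcl2 and lower for the 3 receptors, and the gap is widest for Cxcr4. The marker mean separates mice with and without LPS by itself, so a gene that did not change would also lie lower.

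For ALY688 itself, 0 of the 7 genes passed in any comparison, and neither did any other gene of the tables (edgeR). In ALY688+LPS against LPS, 0 of 12741 genes passed (0%), with 464 at an unadjusted p below 0.05 and 0 passing by DESeq2. In ALY688 against PBS, 0 of 11708 passed (0%), with 1250 at an unadjusted p below 0.05 and 0 by DESeq2. In the interaction, 0 of 13476 passed (0%), with 1216 at an unadjusted p below 0.05 and 4 by DESeq2. Beside the values given above, the ALY688 against PBS log2 differences were -0.08 ± 0.41 for Cxcl10, -0.60 ± 0.43 for Cxcr1, -0.26 ± 0.26 for Cxcr2 and -0.13 ± 0.18 for Cxcr4. The widest of these 95% intervals was that of Cxcr1, -1.5 to 0.29, and the narrowest that of Cxcr4, -0.51 to 0.26. These p-values do not show that the groups were alike. Cxcr1 in ALY688+LPS against LPS differed by -0.09 ± 0.41, and by 0.05, 0.05 and 0.04 without LPS mouse 8, ALY688+LPS mouse 1 and ALY688+LPS mouse 3.

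Among the other chemokines, none passed for ALY688. Pf4 and Ppbp, both platelet chemokines, had the smallest p in ALY688 against PBS (log2 -1.01 ± 0.49 and -1.02 ± 0.53, edgeR adjusted p = 0.442 for both). Xcl1 and Cxcl9 had it in ALY688+LPS against LPS (-1.53 ± 0.41 and -1.83 ± 0.82, adjusted p = 0.913 for both). In the interaction, Cxcl12 stood at -5.43 ± 1.66 and Ppbp at 1.72 ± 0.86 (adjusted p = 0.507 for both). Among the other receptors, Xcr1 and Cxcr5 had the smallest p in ALY688 against PBS (-0.81 ± 0.47 and 0.30 ± 0.18), and Ackr1 and Xcr1 in ALY688+LPS against LPS (1.63 ± 1.02 and 0.82 ± 0.67) and in the interaction (1.82 ± 1.02 and 1.67 ± 0.84).

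The genes whose pattern over the 30 libraries lay closest to each member were found by the root mean square (RMS) difference of centred log2 CPM among 11960 genes. Cxcr2 had the closest companions: Ccr1, a chemokine receptor of neutrophils and monocytes, at 0.18, Pygl, the liver-type glycogen phosphorylase, at 0.19 and Cd300lf, an inhibitory receptor of myeloid cells, at 0.25, against a median of 1.56 over all genes. Cxcl2 lay closest to Acod1, the itaconate-producing enzyme gene, at 1.05, Gpr84, a medium-chain fatty acid receptor, at 1.08 and Upp1, uridine phosphorylase, at 1.12 (median 3.41). Cxcr4 lay closest to Ganc, Eif4a2 and Zmym5 (0.33 to 0.35, median 0.78). Cxcl16 lay closest to Acp2, Galnt3 and Plin2 (0.62 to 0.66, median 1.72), Cxcl10 to Slc2a6, Tbc1d8 and Adap1 (0.615 to 0.621, median 1.29), and Cxcr1 to Tppp3, Eno3 and Cd300e (0.73 to 0.75, median 1.26). For Cxcl3 the nearest genes, Kctd21, Polr2j and Sel1l3, were at 1.02 to 1.03 beside a median of 1.34. Within the set, Cxcl10 and Cxcr2 were the closest pair (0.93) and Cxcl2 and Cxcr4 the farthest (3.71). The libraries share depth and cell composition, and these distances are given without a test.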

How the data were processed

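Blood RNA from 30 mice was analysed. The authors deposited 1 table per mouse of raw gene counts, in whole reads and without normalization. The submitters' processing notes name HISAT2 2.0.5 for alignment and featureCounts 1.5.0-p3 for counting; the sources used here do not state genome build, annotation release or strand setting. Symbols and positions come from GENCODE M21 (GRCm38), promoter windows from RefSeq (GRCm38.p6), which held 6 of the 7 genes. Groups and mouse numbers come from the labels, and each library was counted as 1 mouse; the closest pair within a group had a chi-square per degree of freedom of 8.02, above sampling noise.

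Counts were compared with edgeR 4.0.16 in R 4.3.3 (TMM, filterByExpr, glmQLFit robust, glmQLFTest, two-sided, Benjamini-Hochberg over all genes tested), only the compared groups entering each fit and all 4 the interaction. The fitting was tested on simulated data. Ratios to 15 neutrophil markers used log2 CPM with a prior count of 2 and exact permutation tests in NumPy 2.4.6. Alternatives were DESeq2 1.42.0 as tool and as scaling, library totals, no filter, all groups in 1 fit, mouse number as block, the globin share as covariate, and leaving out mice. The 7 genes and the 15 gene lists were chosen with earlier results of these data known. Genes named are the 7; of other CXC chemokines and receptors those that passed, or the 2 with the smallest p; up to 4 passing genes of other lists; and the 3 nearest in pattern per gene. Of the signalling genes, 1 is counted but not reported here. Adcy7, Rgs18, Cxcl1 and the promoter motifs were chosen after their values were seen. Intervals and floors cover counting error or spread between mice only.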

Additional observations from a re-analysis of the deposited data

Results flagged for a closer look

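Cxcl3 in ALY688+LPS mouse 1 stood at 4.20 CPM, far from the other 6 mice of its group, which had 0 to 1.26 CPM. It was the 1 value singled out among the 28 combinations of gene and group examined, where chance alone singles out about 1 group in 20. The same mouse had 61.7 CPM of Cxcl2, within the range of its group.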

How the results depend on the processing

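The rises of Cxcl2, Cxcl16 and Cxcr2 across LPS passed under every alternative in which they were tested; the exceptions elsewhere follow, and the cause of each was not tested. The number of genes of the set that passed was 5 or 6 when 1 mouse was left out in LPS against PBS and in ALY688+LPS against ALY688. Over all genes, from 3721 of 12540 to 4921 of 12321 then passed in LPS against PBS. In ALY688+LPS against ALY688, from 6058 of 12401 to 6962 of 12268 did. With library totals only, 3050 genes passed in ALY688+LPS against ALY688, beside 6503 with TMM, and the median of all genes moved to 0.50 in ALY688 against PBS, -0.49 in ALY688+LPS against LPS and -1.0 in the interaction. Directions then reversed, none passing, for Cxcl10 (0.42), Cxcr2 (0.41) and Cxcr4 (0.31) in ALY688 against PBS, for Cxcl10 (-0.19), Cxcr2 (-0.11) and Cxcr4 (-0.22) in ALY688+LPS against LPS, and for Cxcl10 (-0.61), Cxcr1 (-0.68), Cxcr2 (-0.52) and Cxcr4 (-0.53) in the interaction. With the globin share as covariate, reversals were Cxcl10 (0.27) and Cxcr2 (0.0015) in ALY688 against PBS, Cxcl16 (0.51) in ALY688+LPS against LPS, and Cxcl16 (0.68) and Cxcr1 (-0.016) in the interaction; the rises of Cxcl10 (1.59) and Cxcr1 (1.12) in LPS against PBS were no longer called. The globin shares of LPS and PBS mice did not overlap, so that covariate can hardly be told apart from LPS between them. Without the libraries of few detected genes, Cxcl16 stood at 0.17 in ALY688+LPS against LPS. Without the filter and ALY688+LPS mouse 1, an alternative chosen after seeing the data, Cxcr1 stood at 0.011 there. Leaving out 1 mouse gave ranges across 0, from the lowest to the highest log2 difference, for Cxcl10 in ALY688 against PBS (-0.25 to 0.37), for Cxcl16 (-0.25 to 0.20), Cxcr1 (-0.307 to 0.0515) and Cxcr2 (-0.0838 to 0.472) in ALY688+LPS against LPS, and for Cxcl16 in the interaction (-0.43 to 0.0502). With a prior count of 0.5, 7 of the 28 ratio tests passed, those of Cxcl2, Cxcl3 and Cxcr1 in LPS against PBS and Cxcl3 in ALY688+LPS against ALY688 being lost, and 9 to 11 passed when 1 mouse was left out. Same-numbered mice did not deviate together (a correlation above 0.1 in 2 of 9, 2 of 7, 1 of 3 and 2 of 4 pairs), so mouse numbers were not read as a pairing. With the mouse number as a replicate block, 4 of the set passed in LPS against PBS, beside 3424 of 11881 genes, and Cxcl10 (1.74) and Cxcr1 (1.26) were no longer called. In ALY688+LPS against ALY688, 5 passed with the block, beside 4745 of 11946 genes. Cxcr1 then stood at 0.25 in ALY688+LPS against LPS and Cxcl16 at 0.015 in the interaction. With 4 LPS mice, no exact test of LPS against PBS can go below 0.00140, and Cxcl3 and Cxcr1 are limited by counts near the floor.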

Other observations

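Other cell type markers were also counted across LPS. Of all genes tested, 26.4% rose and 26.6% fell in ALY688+LPS against ALY688, and 20.9% rose and 17.9% fell in LPS against PBS. Of 11 genes of immature neutrophil granules, 7 were tested, and 6 rose in ALY688+LPS against ALY688 and 7 in LPS against PBS; Lcn2, lipocalin, averaged 1196 ± 515 CPM in ALY688+LPS mice and 14.2 ± 8.98 CPM in ALY688 mice, and 1017 ± 545 CPM in LPS mice and 14.5 ± 7.56 CPM in PBS mice (SD). Of 9 NK cell markers, 2 rose and 1 fell in the first comparison and 6 rose in the second. Of 9 dendritic cell markers, 1 rose and 5 fell in the first, and 1 rose and 4 fell in the second. Of the basophil and eosinophil markers, 4 were tested in the first, where 1 rose and 3 fell, and 3 in the second, where 1 fell. Of 10 platelet markers tested, 0 changed in the first and 5 fell in the second. Of 9 erythroid markers, 2 rose in the first and 1 fell in the second, and of 5 endothelial and other tissue markers tested, 0 changed in the first and 3 fell in the second. The shares of NK cell and erythroid markers that rose in the first did not exceed that of all genes. Nor did the share of erythroid markers that fell in the second.

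Several of these counts depended on the setting, mostly in LPS against PBS. With the globin share as covariate, 0 platelet markers passed there and all 10 were higher (median log2 1.5, beside -1.83 without it), 3 erythroid markers rose and 0 fell, 0 endothelial markers changed, 1 NK cell marker rose, and of the basophil and eosinophil markers 1 rose and 0 fell. With library totals in place of TMM, 3 platelet markers fell, 1 erythroid marker rose and 4 fell, 1 endothelial marker rose and 0 fell, 1 basophil or eosinophil marker rose and 0 fell, and of the dendritic cell markers 2 rose and 2 fell. Of 12353 genes, 5597 then rose and 298 fell, while 1623 rose and 1645 fell with the globin covariate. The number of platelet markers that fell ranged from 0 to 7 over the settings tried, and that of erythroid markers from 0 to 5. In ALY688+LPS against ALY688, 2 platelet markers fell with library totals, 6 erythroid markers rose with the globin share as covariate and 0 with the mouse number as block, and 1 erythroid marker rose and 2 fell without the 6 libraries of few detected genes, where 1 endothelial marker fell and 4 NK cell markers rose. Without the filter on low counts, 5 of 11 genes of immature neutrophil granules rose in ALY688+LPS against ALY688 and 11 of 11 in LPS against PBS. Of all genes, 28.2% and 19.0% then passed in either direction. The globin share is the sum of globin genes, some of them erythroid markers. A fit with it as covariate therefore cannot decide the direction of the erythroid list. That share also did not overlap between LPS and PBS mice, so the covariate can hardly be told apart from LPS there. The counts called in the platelet, erythroid and endothelial lists in LPS against PBS depend on the setting.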
